A study of Mus musculus with 16 samples.

Results

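The 58 genes described here encode the machinery of the G2 phase and of mitosis: 10 kinases, cyclins and phosphatases, 9 factors of the spindle checkpoint and of mitotic exit, the 4 subunits of the chromosomal passenger complex, 10 centromere and kinetochore proteins, 9 kinesins, 8 proteins of the spindle and of cytokinesis, 6 proteins of chromosome structure, and the regulator Foxm1 with the proliferation marker Mki67. They were chosen as a list of gene symbols with no cut-off on a measured value, but with earlier results of these data known. All 58 were found among the 46078 genes of the count table. In the cell cycle, CDK1 bound to A- and B-type cyclins starts mitosis, Aurora and Polo-like kinases build the spindle, kinetochores tie chromosomes to it, and the spindle checkpoint holds back separase until every chromosome is attached. Most of these genes are repressed in resting cells by the DREAM complex and switched on in G2 by B-MYB and FOXM1, so their transcripts rise together in cells that approach division. Adult HSCs rest outside the cell cycle most of the time, and transcripts of this kind are widely used as a sign of cells in cycle.

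RNA-Seq was performed on pools of 30 HSCs, sorted as viable LSK CD48-CD150+ cells from the bone fraction (endosteal HSCs) or the marrow fraction (central HSCs) of long bones of untreated C57/Bl6 mice, either WT or Gfra2-/-. GFRα2 is a receptor of neurturin that cholinergic neurons need, and the study asked whether their loss alters HSCs near bone. The labels name no promoter or cell type that limits the deletion, and which part of Gfra2 the allele lacks is not given in the sources used here, nor is the age of these mice. WT mice gave 4 libraries of endosteal and 4 of central HSCs, and 4 of endosteal and 3 of central HSCs were used from Gfra2-/- mice, for whom the labels list 4 central samples. The libraries of a group are lettered as the table orders them. The study calls such libraries biological replicates, and which animals gave each pool is not given in the sources used here, so p-values measure the spread between these pools. Gfra2 itself had at most 4 counts in each WT library and 2, 47, 1 and 9 counts in the endosteal Gfra2-/- libraries A to D, against 0, 1 and 0 in the central ones. The counts of 47 and 9 came from 18550008 and 11985523 gene counts, while central WT library C had 4 among 826487. Whether they go against the label was not tested, as the part of Gfra2 that the allele lacks is not given. This genotype is therefore called libraries labelled Gfra2-/-, and medians that hold endosteal libraries B and D are also given without them.

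The promoters of the genes are shown because the genes varied together across libraries. Of the 58 genes, 49 had an entry in the RefSeq promoter table (GRCm38.p6), and the 250 bases before the start were searched on both strands for the CHR element (TTTGAA or TTCGAA) and for the CCAAT box (CCAAT). In cell cycle promoters the CHR is bound by DREAM and by B-MYB with FOXM1, and CCAAT boxes are bound by NF-Y. A CHR stood in 19 of the 49 promoters, against 17.1% of all 32851 entries. At least 1 CCAAT box stood in 35 (71.4%), against 33.8% of all entries, and at least 2 stood in 20 (40.8%), against 10.1%. Both elements were present in 17 promoters (34.7%), against 6.02% of all entries, and 12 promoters had neither. For 8 of the 49 genes the RefSeq start lay over 100 bases from the start of the gene in GENCODE M21 (up to 3867), so that their windows are not those next to the GENCODE start. A match is a description of letters in this window and not a measured site. Among the named genes, the windows of Pttg1, Mad2l1, Cenph and Nuf2 held neither element. The promoters below are those of the 4 named genes of highest mean CPM with a CHR, and they also hold a CCAAT box. They are printed 5′ to 3′ on the strand of the gene, in lower case, with matches to the CHR or to the CCAAT box, in either orientation (the CHR also as TTCAAA and the CCAAT box also as ATTGG), in capitals. No CHR overlapped a CCAAT box in them.
Top2a, chr11:99024190-99024439, minus strand: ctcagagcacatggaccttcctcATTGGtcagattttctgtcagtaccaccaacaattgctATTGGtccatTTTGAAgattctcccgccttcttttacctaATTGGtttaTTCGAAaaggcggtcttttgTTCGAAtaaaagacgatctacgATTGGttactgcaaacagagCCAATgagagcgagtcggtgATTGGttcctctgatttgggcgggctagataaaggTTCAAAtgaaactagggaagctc
Mki67, chr7:135716380-135716629, minus strand: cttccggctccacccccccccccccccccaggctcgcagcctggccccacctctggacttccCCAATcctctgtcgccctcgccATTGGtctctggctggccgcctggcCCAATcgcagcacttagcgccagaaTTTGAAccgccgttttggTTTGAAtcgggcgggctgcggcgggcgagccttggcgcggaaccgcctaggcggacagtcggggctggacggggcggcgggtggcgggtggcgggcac
Cdk1, chr10:69352913-69353162, minus strand: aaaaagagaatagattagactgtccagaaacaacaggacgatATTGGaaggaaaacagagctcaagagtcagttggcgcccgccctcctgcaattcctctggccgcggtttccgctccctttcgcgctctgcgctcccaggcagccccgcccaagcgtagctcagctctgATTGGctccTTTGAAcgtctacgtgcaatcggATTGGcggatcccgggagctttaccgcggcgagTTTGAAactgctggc
Kif11, chr19:37376132-37376381, plus strand: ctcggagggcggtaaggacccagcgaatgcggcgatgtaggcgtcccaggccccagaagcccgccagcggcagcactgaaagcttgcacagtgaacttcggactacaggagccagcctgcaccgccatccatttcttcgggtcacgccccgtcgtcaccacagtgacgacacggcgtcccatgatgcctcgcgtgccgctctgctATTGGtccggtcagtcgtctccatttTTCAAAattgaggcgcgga
Top2a carried 4 CHR and 6 CCAAT matches, the Mki67 and Cdk1 promoters 2 and 3 each, and Kif11 1 and 1.

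Every library held transcripts of most of these genes, at levels that differed widely between genes. Levels are given as CPM, that is, counts relative to the TMM-scaled total of the library, and, for comparisons between genes, per kilobase of exon. Per kilobase the mean level over the 15 libraries was highest for the B-type cyclin Ccnb2 (37.7 CPM per kilobase), the condensin subunit Smc4 (31.5), the DNA topoisomerase Top2a (31.2), the securin Pttg1 (30.4) and the kinetochore gene Spc24 (25.9). This order differed between the groups: Ccnb2 led in both endosteal groups (39.9 and 49.4 CPM per kilobase in WT libraries and in those labelled Gfra2-/-), where endosteal library B labelled Gfra2-/- alone gave 23.9% of its sum over the 15 libraries. In central WT libraries Ube2c (48.8) and Top2a (48.6) stood above Ccnb2 (29.8), and Pttg1 (38.4) led in central libraries labelled Gfra2-/-. At the other end stood the phosphatase Cdc25c with 0.62 CPM per kilobase, and this gene was below 3 counts in 10 libraries. Cells use 11 of the 58 genes outside mitosis too, and the other 47 are the more specific genes. The 11 are the condensin subunits Smc2, Smc4 and Ncapd2, the checkpoint protein Bub3, and Incenp, Kif22, Cenpk, Cenph, Cenpn, Ckap2 and Cdc25b.

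The genes took up a larger share of the counts in central than in endosteal WT libraries, with overlapping ranges. Endosteal WT A to D had 0.0862%, 0.173%, 0.228% and 0.433% of their gene counts on the 58 genes (mean 0.230 ± 0.147, SD, n = 4), and central WT libraries A to D had 0.231%, 0.286%, 0.385% and 0.710% (0.403 ± 0.215, n = 4). Endosteal libraries A to D labelled Gfra2-/- had 0.25%, 0.565%, 0.184% and 0.135% (0.284 ± 0.193, n = 4), and the central ones A to C had 0.203%, 0.113% and 0.274% (0.197 ± 0.0806, n = 3). Within each group of 4 libraries a single one stood at more than 0.4%: central WT library D, endosteal WT library D and endosteal library B labelled Gfra2-/-. These 3 libraries held 53, 49 and 55 of the genes above the gene's median over all libraries, and 25 of the 58 genes had their highest CPM in central WT library D, where 7.10% of all genes did. The fewest genes above their median were in endosteal WT library A and central library B labelled Gfra2-/-, with 8 each, and in endosteal library D labelled Gfra2-/-, with 11. In pools of cells, fewer cells of a kind and less RNA per cell cannot be told apart.

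**Figure D1:**
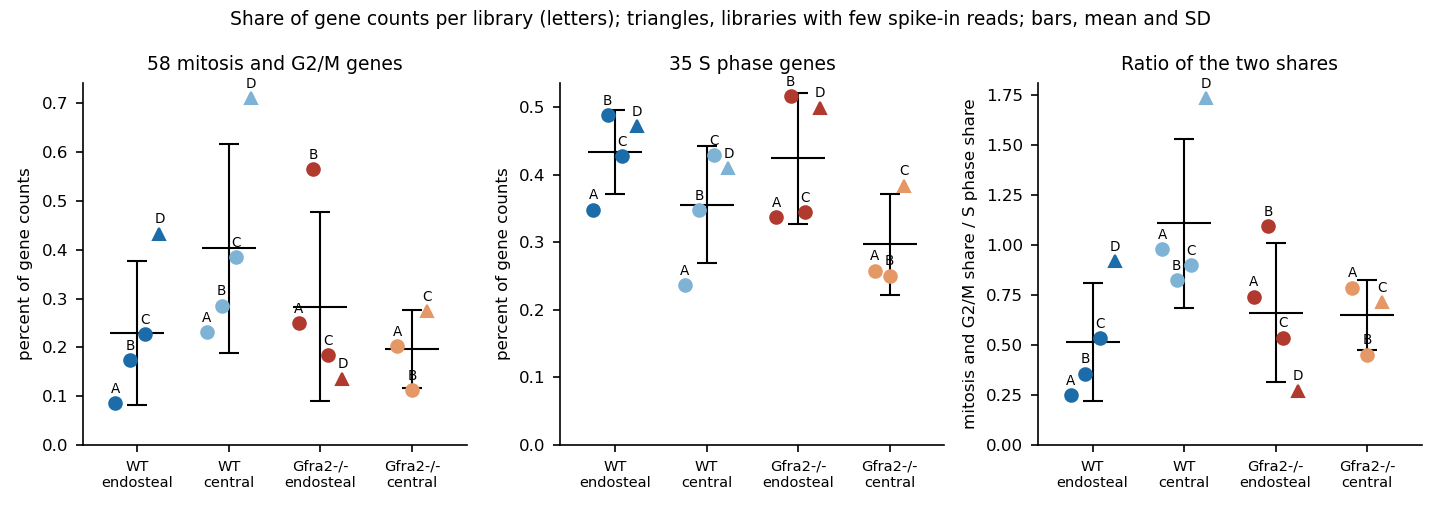
Percent of gene counts per library (y axis) on the mitosis and G2/M genes (left) and on S phase genes (middle), and the ratio of these shares (right), for the 4 groups (x axis); each point is a library with its letter, triangles are libraries with under 0.5% spike-in reads, and bars give the mean and SD. The share of the mitosis and G2/M genes runs from 0.0862% in endosteal WT library A to 0.710% in central WT library D, and the groups overlap.

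**Figure D2:**
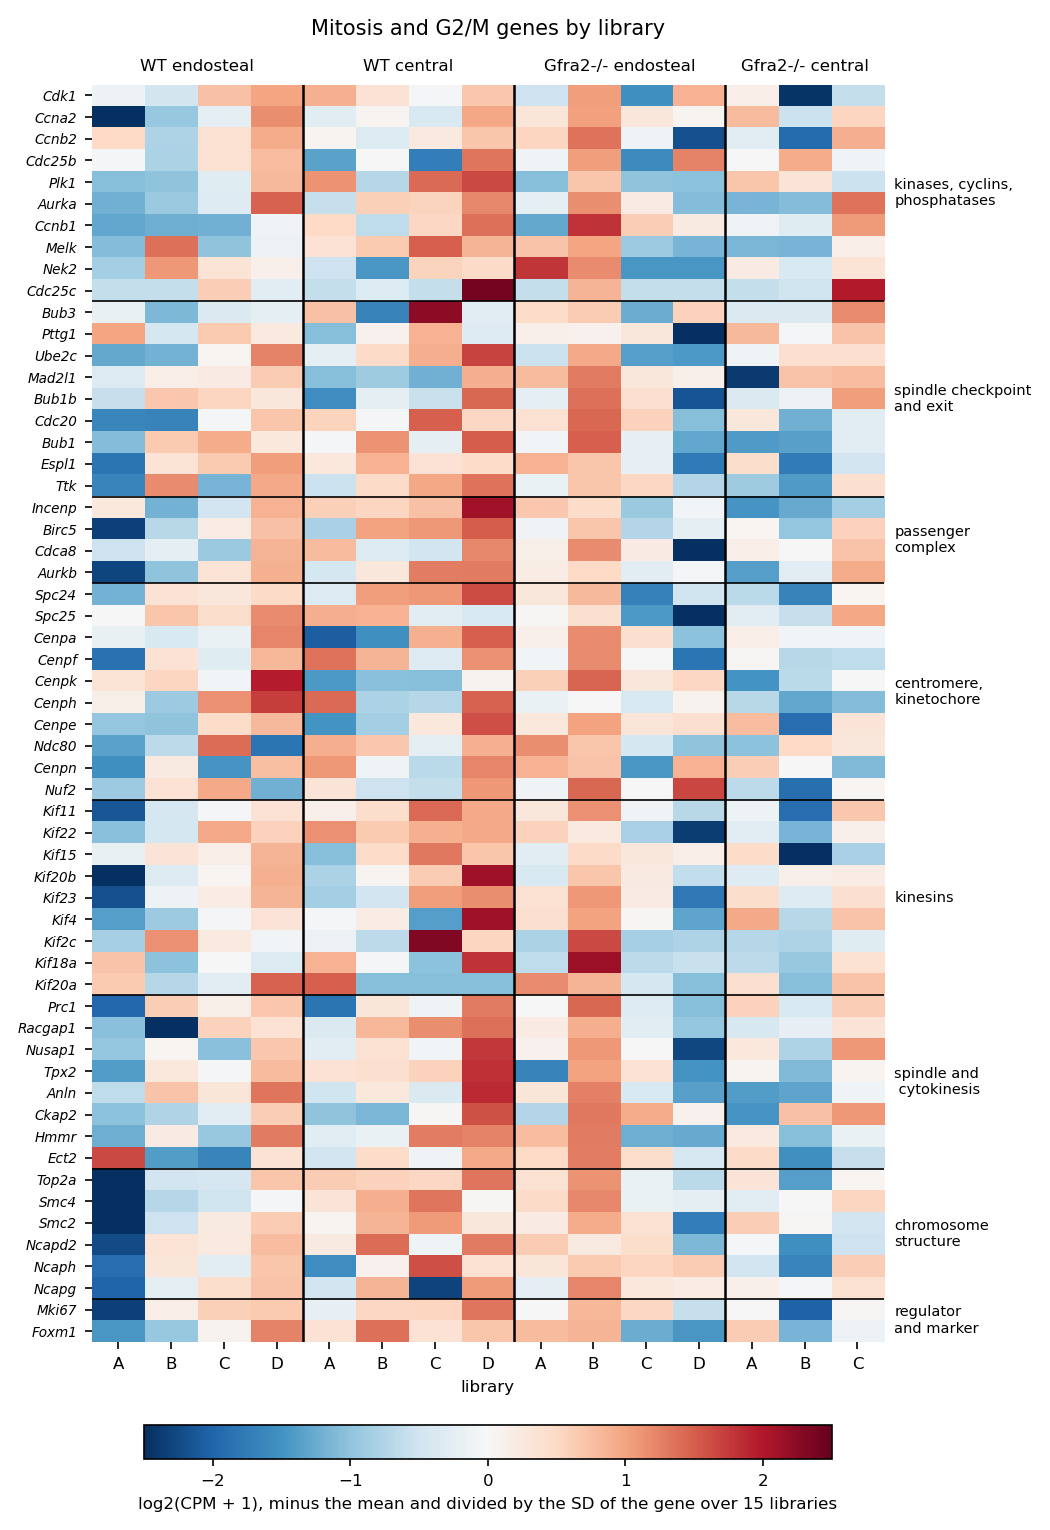
Level of each of the 58 genes (y axis, ordered by role) in each of the 15 libraries (x axis, by group), as log2(CPM + 1) minus the gene's mean and divided by its SD over the libraries; red is high and blue is low. Some columns are mostly red or mostly blue: 53 genes stand above their median in central WT library D and 55 in endosteal library B labelled Gfra2-/-, against 8 in endosteal WT library A.

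Most of the genes varied together, to unequal degrees. Over the 15 libraries the median Pearson correlation of log2(CPM + 1) between pairs of the 58 genes was 0.38, and 91.5% of pairs were above 0. Over all genes tested the median was 0.02, with 53.0% of pairs above 0. The genes of a library share its depth and handling, and depth differed between libraries, so this is a description. Without the 11 genes that cells also use outside mitosis the median was 0.43, and among those 11 it was 0.21. Within complexes it was 0.60 for the centralspindlin pair Kif23 and Racgap1, 0.53 for condensin I, 0.37 for the passenger complex, 0.32 for the NDC80 complex, and 0.28 for Cdk1 with the B cyclins. Top2a (0.88), Kif11 (0.86) and Aurka (0.85) followed the mean of the other members most closely, and Kif20a (0.14), Cdc25b (0.15), Bub3 (0.17) and Pttg1 (0.18) least. Outside the list, the genes with the most similar pattern were Kif14 (0.88), which encodes a kinesin of cytokinesis, Neil3 (0.87), a DNA glycosylase gene, H2afx (0.84), the histone variant of the DNA damage response, Cdca3 (0.82) and Pimreg (0.81).

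S phase genes gave a second scale to read these values on. The ratio of counts on the mitosis and G2/M genes to counts on 35 S phase genes (replication factors and enzymes of nucleotide synthesis) needs no scaling between libraries. It was 0.248, 0.356, 0.533 and 0.919 in endosteal WT A to D and 0.979, 0.823, 0.898 and 1.73 in central WT libraries A to D. Endosteal libraries A to D labelled Gfra2-/- had ratios of 0.742, 1.10, 0.536 and 0.272, and the central ones 0.787, 0.451 and 0.714. Central WT libraries (mean 1.11 ± 0.422, SD, n = 4) did not overlap the central libraries labelled Gfra2-/- (0.651 ± 0.177, n = 3), and overlapped the endosteal WT libraries (0.514 ± 0.295, n = 4) only through endosteal library D, which exceeded central libraries B and C. Neither difference was tested.

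Libraries differed in depth and in other cell types' transcripts. Gene counts ran from 826487 to 3367289 in central WT libraries, of which A and C had under 1500000, and from 4416648 to 18550008 in the other groups. The study's quality cut-off was more than 1500000 uniquely mappable reads, which is not the same measure as gene counts. At least 3 counts were present for 42 to 58 of the genes per library, and at the depth of the shallowest library 27.5 to 57.6 would be expected. Of 10 HSC markers, all reached 3 counts in 14 libraries and 9 did in central WT library C, and the list summed to 1734 to 3726 CPM. The granulocyte and monocyte list summed to 2926 CPM in central WT library D, against 76.6 to 426 CPM elsewhere, with S100a8 at 2564 counts there and Mpo, Elane and Ctsg at 0. Erythroid markers summed to 692 CPM in endosteal library D labelled Gfra2-/- and 188 CPM in library B, against 30.0 to 143 CPM elsewhere, and lymphoid markers to 1257 CPM in that library D, against at most 113 CPM elsewhere. In library B all 10 erythroid markers reached 3 counts, but they were uneven. Car1 had 2345 counts there, and the globin genes Hbb-bt, Hbb-bs and Hba-a1 had 82, 45 and 9. Central WT library D and endosteal library B labelled Gfra2-/- are also 2 of the 3 libraries with the most genes of the list above their median, and the part of such transcripts in the results below was not tested. Spike-in reads were under 0.5% in endosteal WT D, central WT D, endosteal D and central C labelled Gfra2-/-, and over it in the other 11 libraries, and values are given within this technical split. They ran from 0.42% to 7.10% in central WT libraries and from 0.19% to 2.98% in endosteal WT libraries. Whether every pool received the same amount of spike-in RNA is not given in the sources used here. Spike-in size factors take that amount as equal across the split, so the signs they turn cannot be read as differences in RNA content.

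Between endosteal and central HSCs of WT mice, most of the genes had lower values in endosteal HSCs, and none passed the test. Smc4 (chromosome 3, 69004738 to 69034623), a core subunit of the condensins that compact chromosomes, had 29.6, 99.1, 112 and 145 CPM in endosteal WT A to D and 176, 241, 304 and 149.8 CPM in central WT libraries A to D. It was the 1 gene of the list whose endosteal libraries all lay below all central ones (1.97% of all genes tested did so in this direction). Its log2 fold change was -1.26 (standard error 0.47, unadjusted p = 0.0187, adjusted p = 0.563, edgeR quasi-likelihood test with Benjamini-Hochberg adjustment), and 1.06 with spike-in size factors. Ccnb1 (chromosome 13, 100778650 to 100786570), the B-type cyclin that activates CDK1, had 0.693, 0.883, 0.919 and 6.33 CPM in endosteal WT libraries and 13.7, 2.74, 14.2 and 41.5 CPM in central ones. Endosteal library D exceeded central library B, the other values did not cross, and the log2 fold change was -3.11 (standard error 1.24, adjusted p = 0.584 from edgeR; -3.21 and 0.0617 from DESeq2). Spike-in size factors gave -1.52. Processed copies of Ccnb1 exist in the genome, so its counts are uncertain where reads match several copies. In the opposite direction, the centromere gene Cenpk (chromosome 13, 104228611 to 104252392) had 30.7, 36.8, 20.6 and 140.1 CPM in endosteal WT libraries and 5.15, 7.93, 7.74 and 24.2 CPM in central ones. Only central library D reached into the endosteal range, and the log2 fold change was 2.24 (standard error 0.90, adjusted p = 0.585, edgeR), and 3.76 with spike-in size factors.

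Of the 58 genes, 55 were tested here, all but Cdc25c, Kif18a and Kif20a, which were removed for low counts. Fold changes were below 0 for 47 and above 0 for 8, with a median of -0.91 (range -3.33 to 2.24), against 0.03 for all 11181 genes tested, of which 48.5% were below 0. With edgeR 0 of the 55 passed an FDR of 0.1 (0% of all genes did), 5 had an unadjusted p under 0.05 in the lower direction (Smc4, Ccnb1, Kif11, Top2a and Incenp; 3.46% of all genes) and 1 in the higher (Cenpk; 4.43%). DESeq2 called 1, Ccnb1, where it called 4.49% of all genes. Spike-in size factors moved the median of all genes to 1.58 and that of the list to 0.44 (37 above and 18 below 0), which is 1.14 below all genes. The median was -1.06 in libraries with more spike-in reads and -0.80 between the D libraries. It was -1.57 without endosteal WT library D and -0.30 without central WT library D. Values of single pairs such as the D libraries, here and below, are median differences in log2 CPM and not medians of fitted fold changes.

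In central HSCs, the genes had lower values in the libraries labelled Gfra2-/- than in WT libraries, again with none past the edgeR threshold. Incenp (chromosome 19, 9872296 to 9899551), the scaffold of the chromosomal passenger complex that carries Aurora B, had 10.5, 13.1 and 19.7 CPM in central libraries A to C labelled Gfra2-/- and 76.3, 73.5, 87.7 and 310.3 CPM in central WT libraries A to D. The groups did not overlap, and the lowest WT library stood well above the highest library of the other group. The log2 fold change was -3.33 (standard error 0.73, unadjusted p = 0.000693, adjusted p = 0.251 from edgeR), DESeq2 gave -3.40 with an adjusted p of 0.000533, and with spike-in size factors it was -2.40. Kif22 (chromosome 7, 127027729 to 127042471), a kinesin that moves chromosome arms, had 16.3, 4.37 and 28.1 CPM in the former and 111, 58.5, 78.6 and 85.4 CPM in the latter. These groups did not overlap either, and the log2 fold change was -2.43 (standard error 0.79, adjusted p = 0.375 from edgeR and 0.0237 from DESeq2). With spike-in size factors it was -0.32. Cenpf (chromosome 1, 189640606 to 189688086), a kinetochore protein of late G2, had 27.3, 8.74 and 9.45 CPM against 196, 94.2, 15.5 and 145 CPM. Central WT library C, the shallowest, lay among the other group, and the log2 fold change was -2.99 (standard error 0.88, adjusted p = 0.334 from edgeR and 0.0205 from DESeq2), and -1.81 with spike-in size factors.

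Fold changes of 51 of the 56 genes tested were below 0 and 5 above 0, with a median of -1.50 (range -4.58 to 0.54), against 0.03 for all 11772 genes tested. Cdc25c and Kif2c were not tested. EdgeR called 0 of the 56, where it called 6 genes of all (0.051%), and 12 of the list had an unadjusted p under 0.05 in the lower direction (4.14% of all genes): Incenp, Cenpf, Kif22, Ncapd2, Tpx2, Spc24, Top2a, Bub1, Racgap1, Anln, Ube2c and Mki67. The 6 genes whose groups did not overlap were Bub1, Incenp, Kif22, Melk, Top2a and Tpx2 (3.96% of all genes in this direction). DESeq2 called 4 genes, Incenp, Cenpf, Kif22 and Bub1, and 5.14% of all genes. The checkpoint kinase Bub1, named here after its values were seen, had 0, 1 and 39 counts in the 3 central libraries labelled Gfra2-/-, each deeper than every central WT library, and 9, 164, 4 and 282 counts in central WT libraries. Spike-in size factors moved the median of all genes to 1.75 and that of the list to -0.16 (27 above and 29 below 0), which is 1.91 below all genes. Within the technical split the median was -1.33 in libraries with more spike-in reads and -1.63 for the single pair of the others. Without central WT library D it was -0.86, with 39 of 56 below 0.

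In libraries labelled Gfra2-/-, endosteal set against central HSCs, most fold changes were above 0, and their median was close to 0 without endosteal library B. Cenpk had 39.3, 86.9, 28.8 and 36 CPM in endosteal libraries A to D and 4.90, 11.6 and 22.0 CPM in central libraries A to C. All endosteal values lay above all central ones, as they did for the centromere gene Cenph with 24.9, 27.5, 22.0 and 28.9 CPM against 18.4, 12.8 and 14.6 CPM, and for no other gene of the list (3.67% of all genes tested did so in this direction). The log2 fold change of Cenpk was 1.87 (standard error 0.74, unadjusted p = 0.0324, adjusted p = 0.999 from edgeR), 0.77 with spike-in size factors and 1.41 without endosteal libraries B and D. For Incenp, endosteal libraries had 83.1, 68.1, 18.1 and 41.5 CPM, and the central values of 10.5, 13.1 and 19.7 CPM crossed library C alone. Its log2 fold change was 1.85 (standard error 0.67, adjusted p = 0.999 from edgeR and 0.0858 from DESeq2), 1.0 with spike-in size factors and 1.81 without endosteal libraries B and D. Of 55 genes tested, 45 had fold changes above 0 and 10 below, with a median of 0.62 (range -1.06 to 3.89), against 0.03 for all 13860 genes tested; Cdc25c, Kif18a and Kif2c were not tested. EdgeR called 0 (0% of all genes), 2 had an unadjusted p under 0.05 in the higher direction (Incenp and Cenpk; 2.74% of all genes), and DESeq2 called 1, Incenp (2.77% of all genes). The median was 0.05 without endosteal library B, 0.30 without central library B, 0.95 without central library C, and 0.22 (33 above and 22 below 0) without endosteal libraries B and D. Libraries with more spike-in reads gave 1.28, and the single pair of the others gave -1.87. Spike-in size factors turned the direction, with a median of -0.67 (14 above and 41 below 0) against -0.46 for all genes.

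Between the genotypes in endosteal HSCs the median fold change was 0.32 with TMM scaling and changed sign with the scaling and with the libraries used. Ccnb1 had 0.751, 69.1, 15.9 and 9.50 CPM in endosteal libraries A to D labelled Gfra2-/-, against 0.693, 0.883, 0.919 and 6.33 CPM in endosteal WT libraries. Library A labelled Gfra2-/- stood among the WT values and the others above them, with a log2 fold change of 3.39 (standard error 1.40, unadjusted p = 0.0349, adjusted p = 0.737 from edgeR), 1.36 with spike-in size factors and 1.89 without libraries B and D labelled Gfra2-/-. Of 56 genes tested, all but Cdc25c and Plk1, 39 had fold changes above 0 and 17 below, with this median over a range of -1.36 to 3.39, against 0.03 for all 12970 genes tested. EdgeR called 0 (0% of all genes), 1 (Ccnb1) had an unadjusted p under 0.05 in the higher direction (3.18% of all genes) and 0 in the lower, and DESeq2 called 0, against 3.72% of all genes. No gene of the list had groups that did not overlap, where 3.41% of all genes did in the lower and 2.69% in the higher direction. The median turned to -0.46 without endosteal library B labelled Gfra2-/-, and to -0.21 (24 above and 33 below 0) without libraries B and D. It was 0.93 without endosteal WT library D, 0.57 without library D labelled Gfra2-/-, 0.51 without its library C, 0.15 without endosteal WT library B and 0.0052 without endosteal WT library A. Libraries with more spike-in reads gave 1.12 and the single pair of the others -2.18, and spike-in size factors gave -1.22 (6 above and 50 below 0), against -0.28 for all genes.

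**Figure D3:**
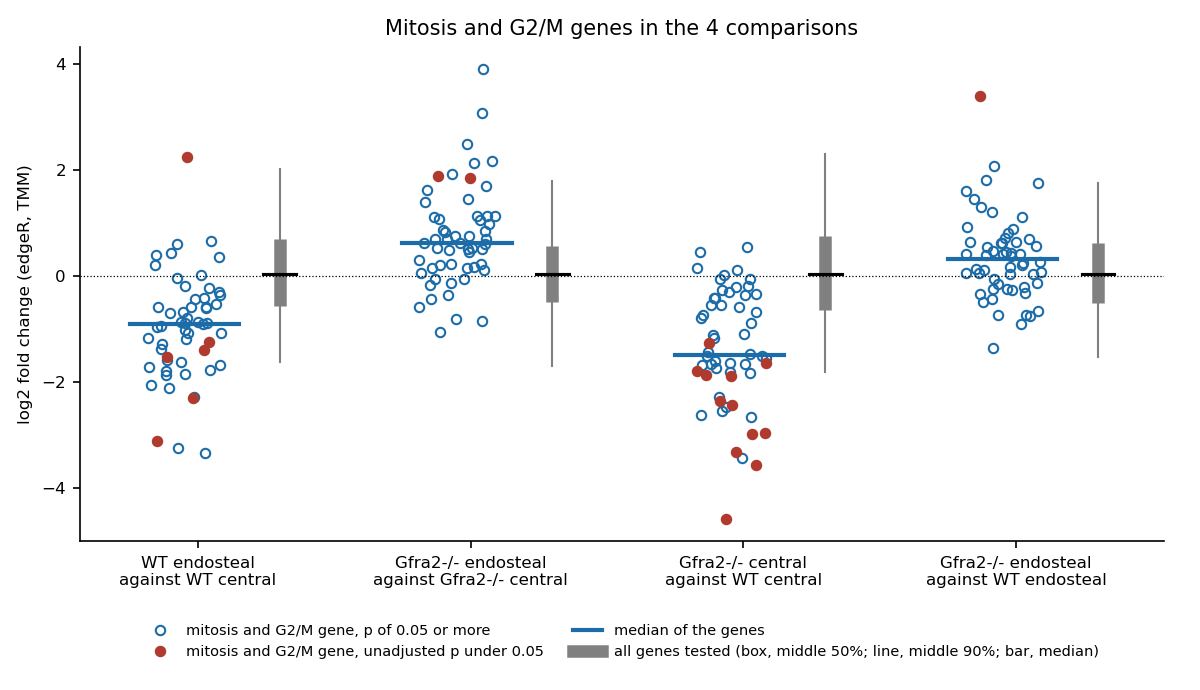
Log2 fold change from edgeR with TMM scaling (y axis) of each tested mitosis and G2/M gene in the 4 comparisons (x axis); filled points have an unadjusted p under 0.05, the blue line is the median of the genes, and grey bars show all genes tested. The medians are -0.91, 0.62, -1.50 and 0.32 from left to right, and with spike-in size factors they are 0.44, -0.67, -0.16 and -1.22.

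The 4 comparisons share groups, so their values are not independent. The difference between genotypes in the endosteal minus central difference was therefore tested itself, in 1 fit over 15 libraries. It was above 0 for 54 of 58 genes and below 0 for 4, with a median of 1.55, against -0.12 for all 15416 genes tested. EdgeR called 0 (0% of all genes), and 2 had an unadjusted p under 0.05 in the higher direction, against 2.56% of all genes. These were Incenp at 3.36 (standard error 1.0, unadjusted p = 0.00374, adjusted p = 0.523 from edgeR) and Smc4 at 1.45 (standard error 0.62, adjusted p = 0.647 from edgeR). They were at 1.38 and -1.73 with spike-in size factors, and at 3.29 and 1.23 without endosteal libraries B and D labelled Gfra2-/-. DESeq2 called 1 gene, Incenp at 3.51 (adjusted p = 0.0345), and 1.69% of all genes. Without endosteal libraries B and D labelled Gfra2-/- the median was 1.12, with 44 above and 14 below 0. Spike-in size factors gave a median of -1.12 for the list (11 above and 47 below 0) and -2.18 for all genes, so the list then stood 1.06 above all genes. The 47 genes that are more specific to mitosis had medians of -0.91 between the WT groups, 0.62 between the compartments of the libraries labelled Gfra2-/-, -1.55 between the central groups and 0.27 between the endosteal groups, and the other 11 had -0.97, 0.74, -0.68 and 0.41. Without endosteal libraries B and D labelled Gfra2-/- the 47 were at 0.16 between the compartments of this genotype and at -0.33 between the endosteal groups, and the 11 at 0.63 and 0.12. With edgeR 0 of the 47 had an unadjusted p under 0.05 between the compartments of this genotype or in the interaction test. Of all genes 2.74% and 2.56% did in the higher direction. Incenp, Cenpk and Smc4, the genes of the list that did, are among the 11. Between the WT groups 3 of the 47 were lower with such a p (3.46% of all genes). Between the central groups 9 were (4.14%). Smc4, Cenpk and Cenph, whose compartments did not overlap in 1 genotype, are among the 11 too.

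**Figure D4:**
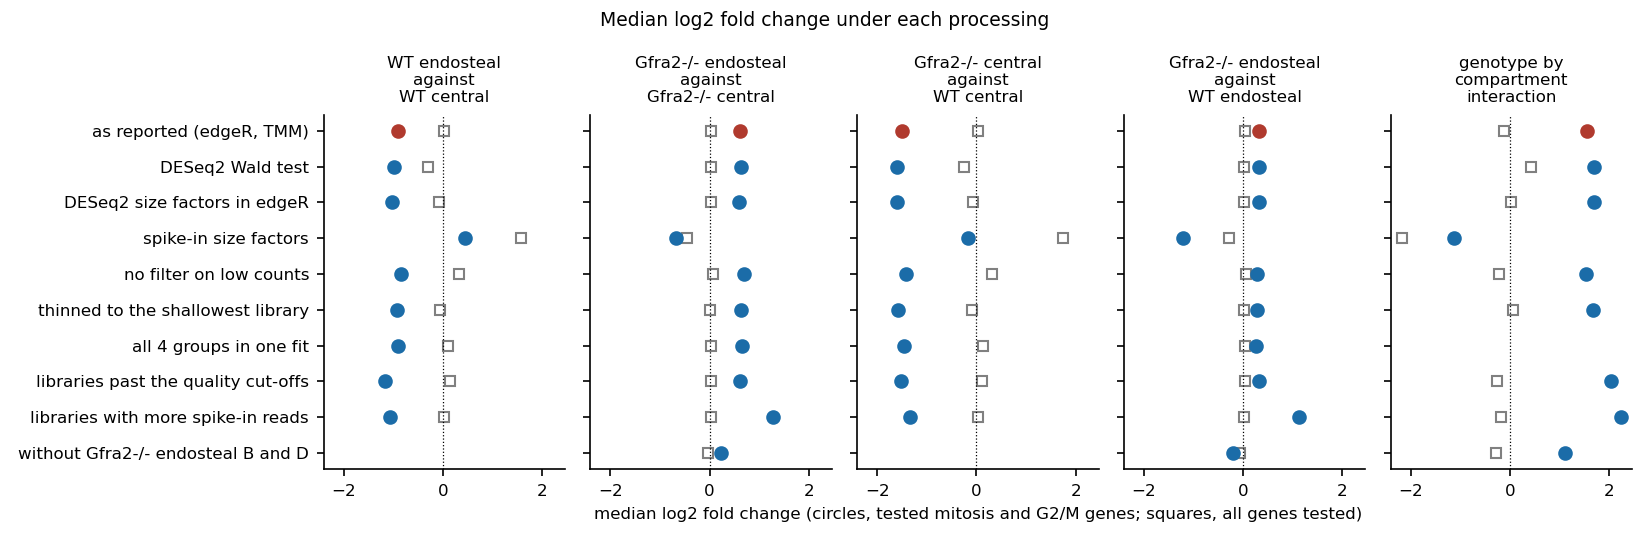
Median log2 fold change (x axis) of the tested mitosis and G2/M genes (circles; red, as reported) and of all genes tested (squares) under each processing (y axis), for the 4 comparisons and the interaction. The WT comparison and the central comparison of genotypes keep the circle left of the square throughout, including with spike-in size factors, where the circles stand at 0.44 and -0.16.

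Among kinases, cyclins and phosphatases, Cdk1, the kinase that drives entry into mitosis, had 54.0, 37.1, 134 and 174 CPM in endosteal WT libraries and 159.5, 90.3, 58 and 125 CPM in central ones (chromosome 10, 69335146 to 69352938). Endosteal libraries labelled Gfra2-/- had 35.2, 185, 11.4 and 156 CPM and the central ones 73.6, 3.69 and 32.3 CPM. All 4 groups overlapped, and the log2 fold changes were -0.20 between the WT groups and -1.65 between the central groups (adjusted p = 0.946 and 0.616, edgeR), and 1.71 and -0.13 with spike-in size factors. Ccna2, cyclin A2, had 1.85, 19.1, 40.8 and 174 CPM in endosteal WT, 39.5, 56.1, 34.8 and 143 CPM in central WT, 71.3, 151, 70.1 and 55.6 CPM in endosteal and 119, 29.6 and 90.8 CPM in central libraries labelled Gfra2-/- (chromosome 3, 36564865 to 36572150). In this gene too the groups overlapped throughout, and between the central groups it was 1 of the 5 genes above 0 (0.14, adjusted p = 0.976, edgeR; 1.08 with spike-in size factors). Plk1, Polo-like kinase 1, was at 0, 0.136, 3.03 and 29 CPM in endosteal WT and at 52.3, 0.915, 91.5 and 139.5 CPM in central WT libraries (chromosome 7, 122159439 to 122169873). Libraries labelled Gfra2-/- had 0, 23.9, 0.116 and 0.0888 CPM in endosteal and 23.8, 11.5 and 1.66 CPM in central HSCs, so that 1 endosteal library held nearly all Plk1 reads of its group. The log2 fold change between the WT groups was -3.24 (standard error 1.61, adjusted p = 0.641, edgeR), and -1.13 with spike-in size factors. Over the whole role group, 7 of 9 tested genes were below 0 between the WT groups (median -0.31), 7 of 9 above 0 between the compartments of the libraries labelled Gfra2-/- (0.74), and 7 of 9 below 0 between the central groups (-0.35), while spike-in size factors gave medians of 1.36, -0.83 and 0.79. Between the compartments of the libraries labelled Gfra2-/- the median was -0.64 without endosteal libraries B and D, with 3 of 9 above 0.

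Factors of the spindle checkpoint and of mitotic exit included genes with the sign opposite to the median of the list. Pttg1 (chromosome 11, 43420250 to 43426251), the securin that inhibits separase, had 109, 35.6, 84.2 and 60.7 CPM in endosteal WT and 21.4, 54.3, 99.3 and 38.9 CPM in central WT libraries. Endosteal libraries labelled Gfra2-/- had 55.4, 54.7, 63.0 and 4.00 CPM, and the central ones 94.6, 48.3 and 87.6 CPM. Its groups overlapped, and its log2 fold changes were 0.40 between the WT groups, -0.81 between the compartments of the libraries labelled Gfra2-/-, 0.45 between the central groups and -0.75 between the endosteal groups, each on the other side of 0 from the list's median. With spike-in size factors these were 2.02, -2.23, 2.59 and -1.67, and all but the one between the central groups then had the sign of the list's median under that scaling. Mad2l1 (chromosome 6, 66535390 to 66547220), a checkpoint protein that blocks the anaphase-promoting complex, had 28.2, 44.7, 46.1 and 67.3 CPM in endosteal WT and 14.6, 17.4, 12.9 and 85.7 CPM in central WT libraries. In libraries labelled Gfra2-/- it had 77.4, 119, 49.2 and 43.0 CPM in endosteal and 3.97, 71.5 and 75.7 CPM in central HSCs. Central WT library D alone stood above the endosteal WT values, and the log2 fold change between the WT groups was 0.43 (adjusted p = 0.918, edgeR; 1.14 with spike-in size factors). Of this role group 7 of 9 genes were below 0 between the WT groups (median -0.59) and between the central groups (-1.52), and 6 of 9 above 0 between the compartments of the libraries labelled Gfra2-/- (0.50), against medians of 1.14, 0.02 and -0.72 with spike-in size factors. The last was 0.33 with TMM scaling and without endosteal libraries B and D, with 5 of 9 above 0.

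The other subunits of the passenger complex, Aurkb, Birc5 and Cdca8, had fold changes closer to 0 than Incenp between the central groups. All 4 subunits were below 0 between the WT groups (median -1.41) and between the central groups (-1.42), and 2 of 4 were above 0 in each case with spike-in size factors (0.21 and 0.17). In endosteal WT libraries Incenp had 56.1, 14.1, 27.7 and 99.2 CPM, and library D alone exceeded the 3 lower central WT libraries. Between the central groups the fold changes of the other subunits were -1.11 for Aurkb, the kinase, -1.74 for Birc5, survivin, and -0.42 for Cdca8, borealin, against -3.33 for Incenp. With spike-in size factors they were 0.66, -0.32 and 0.76, against -2.40. Differences between subunits were not tested.

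Kinetochore genes included both directions. Spc25 (chromosome 2, 69193895 to 69206194) and Nuf2 (chromosome 1, 169497934 to 169531464) encode subunits of the NDC80 complex, which binds microtubules. Spc25 had 45.7, 84.5, 67.5 and 129 CPM in endosteal WT, 102, 97.6, 36.1 and 32.9 CPM in central WT, 47.1, 65.7, 12.7 and 4.17 CPM in endosteal and 36.8, 27.9 and 107 CPM in central libraries labelled Gfra2-/-. Between the endosteal groups, libraries C and D labelled Gfra2-/- lay below all WT values, with a log2 fold change of -1.36 (standard error 0.76, adjusted p = 0.767, edgeR), -2.99 with spike-in size factors and -1.46 without libraries B and D labelled Gfra2-/-. Nuf2 had 2.31, 14.5, 30.4 and 1.33 CPM in endosteal WT, 13.7, 4.27, 3.87 and 36.5 CPM in central WT, 7.92, 56.8, 8.95 and 74.8 CPM in endosteal and 3.51, 0 and 9.58 CPM in central libraries labelled Gfra2-/-. Endosteal libraries B and D labelled Gfra2-/- stood above every other library, and the log2 fold change between the compartments in this genotype was 3.06 (standard error 1.60, adjusted p = 0.999, edgeR), 2.50 with spike-in size factors and 0.94 without those 2 libraries. In WT libraries Cenph (chromosome 13, 100759674 to 100775899), a subunit of the inner kinetochore, had 29.8, 16.2, 52.5 and 73.3 CPM in endosteal and 60.9, 17.4, 18 and 63.4 CPM in central HSCs. The values overlapped, with a log2 fold change of 0.02 (adjusted p = 0.999, edgeR; 1.54 with spike-in size factors). Cenpf in endosteal libraries had 0.693, 44.4, 16.1 and 90.6 CPM in WT and 22.9, 151, 25.5 and 0.799 CPM in those labelled Gfra2-/-, which overlapped. Among the 10 genes of this role group 7 were below 0 between the WT groups (median -0.63), 9 below 0 between the central groups (-1.50), and 9 above 0 between the compartments of the libraries labelled Gfra2-/- (0.87), against 0.34, -0.44 and -0.03 with spike-in size factors. Leaving out endosteal libraries B and D gave 0.64 for the last with TMM scaling, with 8 of 10 above 0.

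Every kinesin gene tested between the WT groups (7) and between the central groups (8) had a fold change below 0, with medians of -1.72 and -1.66, or 0.14 and -0.25 with spike-in size factors. Kif11 (chromosome 19, 37376403 to 37421859), the motor that pushes spindle poles apart, had 0.693, 18.7, 33.5 and 58.6 CPM in endosteal WT and 42.0, 67.1, 268 and 138 CPM in central WT libraries. Endosteal library D exceeded central library A and no other values crossed, and the log2 fold change was -2.29 (standard error 0.94, adjusted p = 0.586, edgeR). It was -0.05 with spike-in size factors. Endosteal libraries labelled Gfra2-/- had 52.5, 181, 31.0 and 12.3 CPM of Kif11 and the central ones 29.2, 1.36 and 94.0 CPM. Kif22 had 5.31, 12.9, 85.2 and 52.4 CPM in endosteal WT and 52.7, 33, 7.55 and 0.0888 CPM in endosteal libraries labelled Gfra2-/-. For both genes the endosteal groups overlapped. Of the 9 kinesins tested between the endosteal groups, 6 were above 0 (median 0.42), 1 was with spike-in size factors (-1.09), and 4 were without libraries B and D labelled Gfra2-/- (-0.19).

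The 8 genes of the spindle and of cytokinesis were all below 0 between the central groups (median -1.52), 7 were below 0 between the WT groups (-1.33), and 7 above 0 between the compartments of the libraries labelled Gfra2-/- (0.76), against -0.53, -0.05 and -1.03 with spike-in size factors. With TMM scaling but no endosteal libraries B and D the last was 0.14, with 5 of 8 above 0. Tpx2, an activator of Aurora A named after its values were seen, had 16, 1.94 and 16.1 CPM in central libraries labelled Gfra2-/- and 25.7, 27.1, 36.1 and 246 CPM in central WT libraries. These groups did not overlap, with a log2 fold change of -2.95 (standard error 1.11, adjusted p = 0.470, edgeR), and -2.28 with spike-in size factors. Ckap2 (chromosome 8, 22168160 to 22185819), which encodes a microtubule-associated protein, had 1.62, 2.85, 6.61 and 24.6 CPM in endosteal WT, 1.72, 1.22, 10.3 and 101 CPM in central WT, 2.94, 67.4, 39.2 and 11.9 CPM in endosteal and 0.397, 29.8 and 49.0 CPM in central libraries labelled Gfra2-/-. It spread over a wide range within every group, and the fold change between the endosteal groups was 1.75 (standard error 1.14, adjusted p = 0.822, edgeR), -0.21 with spike-in size factors and 1.23 without libraries B and D labelled Gfra2-/-.

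The 6 genes of chromosome structure shared a sign within each comparison: all were below 0 between the WT groups (median -1.11) and between the central groups (-0.98), and above 0 between the compartments of the libraries labelled Gfra2-/- (0.61) and between the endosteal groups (0.68), and spike-in size factors turned these medians to 0.88, 0.70, -0.50 and -0.85. Without endosteal libraries B and D labelled Gfra2-/- the last 2 were 0.28 and 0.47 with TMM scaling, each with 5 of 6 above 0. Top2a (chromosome 11, 98992943 to 99024189), which untangles sister chromatids, had 23.8, 144, 152 and 392 CPM in endosteal WT and 375, 352, 339 and 687 CPM in central WT libraries. Endosteal library D crossed into the central range, and the log2 fold change was -1.39 (standard error 0.59, adjusted p = 0.594, edgeR). Spike-in size factors turned it to 0.41. Endosteal libraries labelled Gfra2-/- had 298, 570.1, 189 and 122 CPM and the central ones 284, 65.5 and 225 CPM of Top2a, the latter all below the central WT libraries, with a log2 fold change of -1.27 (standard error 0.49, adjusted p = 0.480, edgeR), and 0.04 with spike-in size factors. Smc4 had 191, 283, 134 and 131 CPM in endosteal and 125, 148 and 198 CPM in central libraries labelled Gfra2-/-. These overlapped each other and the central WT values.

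Mki67 (chromosome 7, 135689784 to 135716361), whose protein coats mitotic chromosomes, had 5.31, 141, 243 and 259 CPM in endosteal WT and 88.3, 219.9, 223 and 607 CPM in central WT libraries. Libraries labelled Gfra2-/- had 113, 328, 218 and 56.1 CPM in endosteal and 114, 8.35 and 119.8 CPM in central HSCs. All groups overlapped, and the log2 fold change was -0.90 between the WT groups (adjusted p = 0.815) and -1.88 between the central groups (standard error 0.83, adjusted p = 0.551, edgeR), against 0.24 and -0.78 with spike-in size factors. Foxm1 (chromosome 6, 128362967 to 128376146), which encodes the transcription factor that switches on many of these genes, had 0, 0.950, 6.89 and 35.5 CPM in endosteal WT, 10.3, 41.8, 10.3 and 16.3 CPM in central WT, 18.8, 20.5, 0.349 and 0 CPM in endosteal and 15.1, 0.486 and 4.73 CPM in central libraries labelled Gfra2-/-. It was at 0 counts in endosteal WT library A and endosteal library D labelled Gfra2-/-, which also had few of the other genes above their median. Between the WT groups its log2 fold change was -0.95 (standard error 1.39, adjusted p = 0.903, edgeR), and 1.93 with spike-in size factors.

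**Figure D5:**
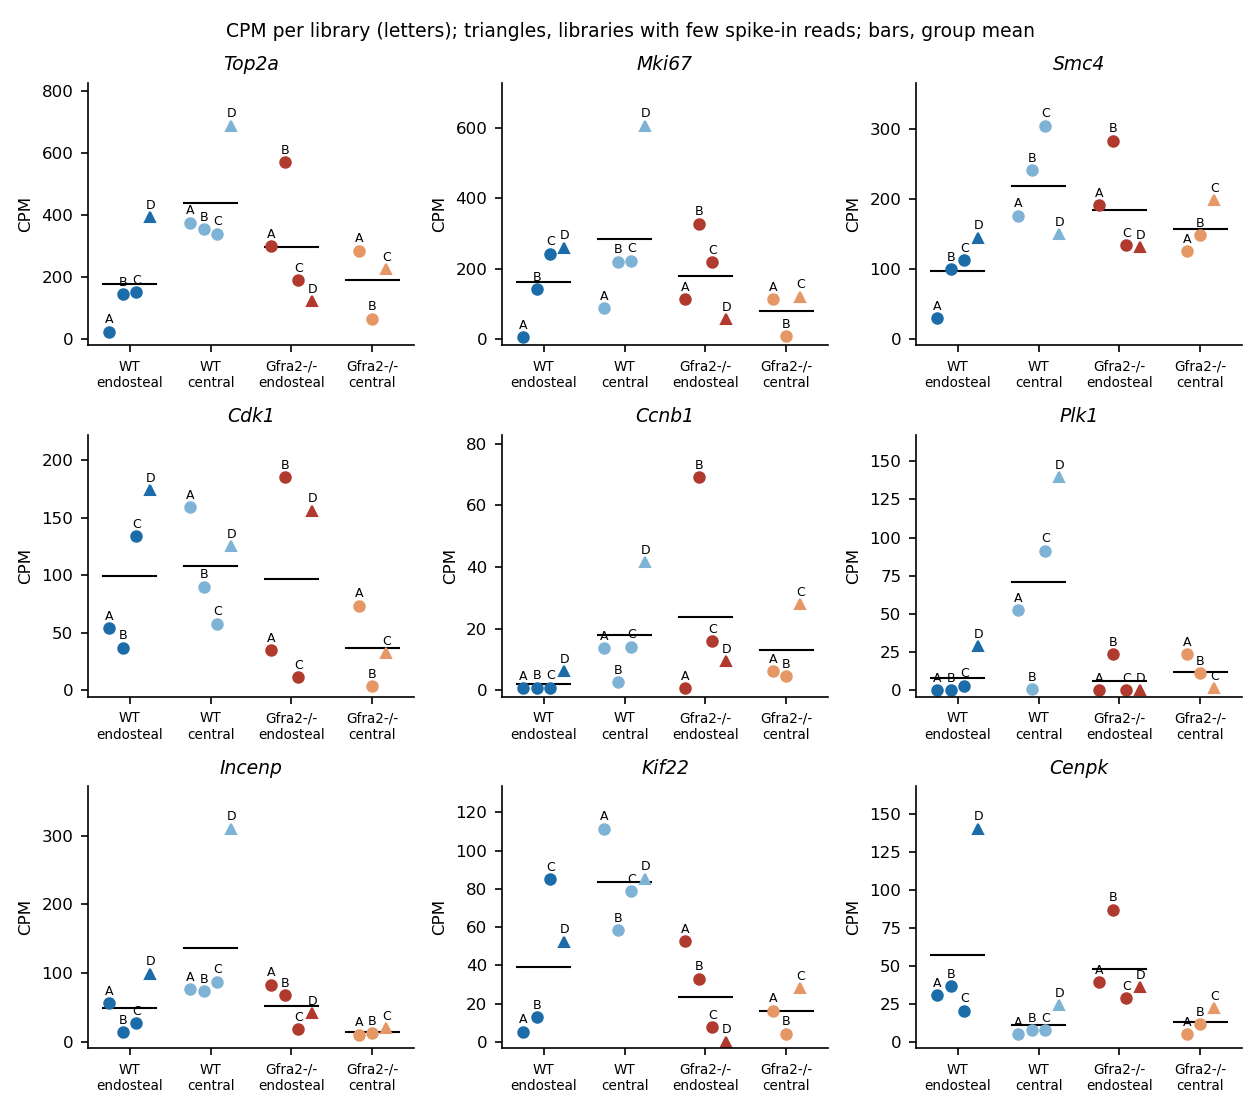
CPM (y axis, linear, own scale per gene) of 9 of the genes in each library (points with letters) by group (x axis); bars are group means and triangles are libraries with under 0.5% spike-in reads. Incenp and Kif22 do not overlap between the central groups, with 10.5 to 19.7 against 73.5 to 310.3 CPM and 4.37 to 28.1 against 58.5 to 111 CPM.

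Other G2/M genes, a list of 50 that holds no member, had medians on the same side of 0 as the members with TMM scaling, but not between the central groups with spike-in size factors (0.45, against -0.16 for the members). They were below 0 in 32 of 45 tested between the WT groups (median -0.77) and 33 of 46 between the central groups (-1.03), and above 0 in 39 of 48 between the compartments of the libraries labelled Gfra2-/- (0.64) and 31 of 48 between the endosteal groups (0.44), and with spike-in size factors in 34 of 45, 30 of 46, 19 of 48 and 9 of 48 above 0. Their last 2 medians without endosteal libraries B and D labelled Gfra2-/- were 0.32 and -0.29. The condensin II gene Ncapg2 had the smallest p of this list between the WT groups, at -1.64 (standard error 0.61, adjusted p = 0.569, edgeR), and Wee1, the kinase that inhibits CDK1, was at 2.31 (standard error 1.01). Between the central groups the smallest p belonged to Cdca3, which triggers the degradation of the WEE1 kinase, at -3.79 (standard error 1.15, adjusted p = 0.353, edgeR) and to the centromere gene Cenpi, with 0, 2 and 11 counts in libraries labelled Gfra2-/- against 20, 68, 6 and 118 in WT libraries. Cenpi and Cenpw led the compartments of the libraries labelled Gfra2-/-, at 6.22 and 1.39 (standard errors 1.76 and 0.65, adjusted p = 0.896 and 0.999, edgeR). Cenpi had 952, 1396, 39 and 185 counts in endosteal libraries A to D labelled Gfra2-/-, so A and B held most of them. Knl1 and Depdc1b led the endosteal groups, at 3.21 and 4.04 (standard errors 1.21 and 1.55, both with an adjusted p of 0.737, edgeR). None of the 50 passed an FDR of 0.1 in any comparison with edgeR.

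The 35 S phase genes stood apart from the members between the WT groups, where 25 of 34 tested were above 0 and 9 below (median 0.21, and 34 of 34 above 0 with spike-in size factors, at 0.22 above all genes). Their medians were 0.50 between the compartments of the libraries labelled Gfra2-/- (30 of 35 above 0), -0.25 between the central groups (23 of 35 below 0) and 0.04 between the endosteal groups (18 of 34 above 0), and with spike-in size factors -0.10, 1.37 and -0.22. Without endosteal libraries B and D labelled Gfra2-/- the first and the last were 0.22 and -0.32. E2f1, a transcription factor of G1 and S phase, had a log2 fold change of 1.93 between the WT groups (standard error 0.83, adjusted p = 0.594, edgeR) and the histone mRNA binding protein Slbp one of 1.02. The ribonucleotide reductase genes Rrm1 and Rrm2 stood at 1.04 and 1.64 between the compartments of the libraries labelled Gfra2-/- (both with an adjusted p of 0.896, edgeR). Between the central groups the flap endonuclease gene Fen1 had 65, 36 and 23 counts in libraries labelled Gfra2-/- and 0 in each of the 4 shallower WT libraries, and Rpa2 was at -1.16. Between the endosteal groups Lig1 and Gins1 were at -0.68 and -2.13. None of the S phase genes passed an FDR of 0.1 with edgeR.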

How the data were processed

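The authors aligned single-end Smart-seq2 reads to GRCm38 with GSNAP (named in the submitters' processing notes) and deposited HTSeq (0.5.3p3) counts per gene, made without regard to strand and without normalization. Overlapping and antisense genes are therefore uncertain. No molecular identifiers were used, so depth covers counting error only. Columns were given to groups by the study's list of libraries; 1 column that this list does not name was not mapped and not used, and 1 central Gfra2-/- sample was not analysed here.

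The 58 genes and the other lists were chosen with earlier results of these data known. Named are Mki67, Top2a, Cdk1, Ccnb1, Foxm1, Plk1, the 3 genes with the highest mean CPM, and the 3 with the smallest p in each direction of each comparison. Genes, without spike-ins and summary categories, were tested with edgeR 4.0.16 (R 4.3.3; filterByExpr, TMM, quasi-likelihood test, two-sided, Benjamini-Hochberg over all genes, FDR 0.1) on the libraries of the groups compared. Standard errors are the fold change divided by the root of F. DESeq2 1.42.0, other size factors, no filter, thinning, 1 fit of all groups and left-out libraries were alternatives. Only the edgeR fit of endosteal against central WT libraries was tested on simulated data. Positions came from GENCODE M21 (GRCm38), and the other values from Python 3.11.15.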

Additional observations from a re-analysis of the deposited data

Results flagged for a closer look

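In groups of 4 libraries, 12 of 63 tests of a named gene in a group found the highest or lowest library far from the other 3. About 1 in 20 would by chance if values were normally distributed, but the tests used CPM without a log scale. How many would by chance on that scale was not tested. The libraries share a block of co-varying genes, so these tests are not independent. Central WT library D was the high one in 5 cases: Top2a (687 CPM, against 339 to 375 in the others), Incenp (310.3, against 73.5 to 87.7), Ckap2 (101, against 1.22 to 10.3), Mad2l1 (85.7, against 12.9 to 17.4) and Cenpk (24.2, against 5.15 to 7.93). Endosteal WT library D was high for Cenpk (140.1 CPM, against 20.6 to 36.8), Plk1 (29, against 0 to 3.03) and Ccnb1 (6.33, against 0.693 to 0.919). Endosteal library B labelled Gfra2-/- was high for Cenpf (151 CPM, against 0.799 to 25.5), Ccna2 (151, against 55.6 to 71.3) and Plk1 (23.9, against 0 to 0.116). A single low value was found, for Pttg1 in endosteal library D labelled Gfra2-/- (4.00 CPM, against 54.7 to 63.0).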

How the results depend on the processing

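Spike-in size factors moved every median: to 0.44 between the WT groups, -0.67 between the compartments of the libraries labelled Gfra2-/-, -0.16 between the central groups, -1.22 between the endosteal groups and -1.12 for the interaction. DESeq2 called 1, 1, 4 and 1 genes of the list in the WT, Gfra2-/-, central and interaction tests, and 4.49%, 2.77%, 5.14% and 1.69% of all genes. EdgeR without a filter on low counts called 3 between the central groups, where it called 134 of all 21759 genes. Leaving out single libraries gave medians of -1.57 to -0.30, 0.05 to 0.95, -1.65 to -0.86, -0.46 to 0.93 and 1.06 to 2.22 in the same order, and 0 calls each time. Between the endosteal groups the median changed sign without endosteal library B labelled Gfra2-/-, left out alone or with library D. The single pairs of libraries with few spike-in reads, which allow no test, gave median differences in log2 CPM of -0.80, -1.87, -1.63 and -2.18 in the 4 comparisons. These are not fitted fold changes, and the second and the fourth had the sign opposite to the fitted median. Each other alternative fitted, among them the removal of libraries with under 1500000 gene counts, left the number of calls in the list at 0 and each median and each group's mean share within 1 SD, that of the spread between libraries. Without those libraries, central WT A and C, the medians were -1.16 between the WT groups, -1.52 between the central groups and 2.03 for the interaction. For the medians this SD was 1.16, 1.16, 0.92, 1.30 and 1.14 on the log2 scale, in the order used above. It exceeded the size of the median itself in the WT, the Gfra2-/- and the endosteal comparison. A change of sign could stay within 1 SD there, so this check cannot show that a sign holds. Mean numbers of detected genes were 43.1 in endosteal WT and 45.3 in central libraries labelled Gfra2-/- at the depth of the shallowest library, and 45.8 in central WT libraries at 10 counts or more. No paired analysis was possible because the table's columns are not numbered by replicate. Low counts limit Cdc25c most, which was below 3 counts in 10 libraries.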
